A study of Mus musculus with 3 samples.

Results

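The collagen chain genes encode the polypeptides that fold, 3 at a time, into the triple helices of the collagen family. They were taken as every non-control probe whose gene symbol reads Col, a type number, the letter a and a chain number, which gave 42 genes on 61 probes out of 20279 named genes on 26755 named probes. The reference gene table lists 44 such genes, and Col6a3 and Col12a1 had no probe named here and were not analysed. The measurements come from 3 Agilent mouse arrays hybridised with labelled RNA of primary mesenchymal stem cells (MSCs), adherent stromal progenitors grown out of bone marrow of male mice aged 8 weeks. The day 0 cells were MSCs in growth medium alone. The day 3 and day 21 cells, which the labels call osteoblasts, were the same kind of culture kept for 3 or 21 days with 50 μg/mL ascorbic acid, the cofactor of the enzymes that hydroxylate collagen, and 10 mM β-glycerophosphate, a phosphate donor for mineral. Each day is 1 array, so there was no replicate, no test between days and no p-value. How many mice or cultures stand behind each array is not stated in the labels.

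Collagens differ in how their triple helices assemble. Fibrillar chains form the cross-striated fibrils of bone, tendon and cartilage, and type I is the main protein of bone matrix. FACIT chains (fibril-associated collagens with interrupted triple helices) sit on the fibril surface, network chains form the sheets of basement membranes and related lattices, type VI forms beaded filaments around cells, and further chains span the cell membrane, carry the fragment endostatin or anchor epithelium to the tissue beneath it. The 42 genes were grouped by these classes into 11 fibrillar, 6 basement membrane, 3 short chain network, 8 FACIT, 6 beaded filament, 4 transmembrane, 2 endostatin-bearing and 1 anchoring fibril chain, with Col26a1 in no class.

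Values are the processed signal of each probe, a background-subtracted brightness in arbitrary units. Differences between days are log2 differences after each array was divided by the 75th percentile of its own signals, with values of 172, 175 and 191 in the order of the days. A gene counts as measured in a comparison where both of its arrays gave a signal well above background, by the scanner software's own call. A gene was called higher or lower when it differed at least 2-fold. The technical SD of a log2 difference, from probes printed on 10 spots, was 0.24 for signals below 100 and 0.09 for signals above 1000 in the day 3 against day 0 comparison, and the software's error model gave the measured collagens an SD of 0.20 in the median and 0.32 at most. Both cover the array measurement and not the spread between cultures. Day 0 and day 21 were hybridised on the same slide and scanned together, whereas day 3 was on another slide with its own scan, so day 3 and its slide cannot be told apart. No spot was saturated.

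The labelled cell types were set against marker lists. All 10 mesenchymal stromal markers were above background on every array, but their levels were not constant. At day 21, 3 were at least 2-fold higher than at day 0 (Pdgfra, Ly6a and Cxcl12) and 1 was lower (Cd44). The background over all measured genes was 12.8% higher and 16.8% lower. Of 8 osteoblast markers with a named probe, 3 were detected at day 0, 5 at day 3 and 7 at day 21, and their summed signal was 733, 2594 and 6708. Spp1 made up most of each sum, at 625, 2115 and 4613. Sp7, a transcription factor required for osteoblasts, stayed below the detection call throughout, and Runx2, its upstream regulator, lay near background with signals of 18.7, 20.7 and 16.0. Markers of other mesenchymal fates were also present. Chondrocyte markers were above background for 2, 6 and 7 of 7 genes with summed signals of 474, 3508 and 8150, and adipocyte markers for 4, 7 and 7 of 7 genes with summed signals of 1361, 6490 and 208015. Fibroblast or tendon markers were above background for 4, 5 and 5 of 5 genes with summed signals of 7852, 3825 and 4752. The members of this list went different ways. Scx, which made up most of the day 0 sum, had signals of 6745, 1590 and 540. Dpt (3.48, not above background, then 320 and 1096) and Pi16 (40.7, 439 and 1795) were higher at each later day, and Tnmd and Mkx stayed within 2-fold. Macrophage markers gave summed signals of 10288, 9342 and 16407 with Ptprc and Adgre1 not above background on any array. Itgam made up most of each macrophage sum, at 9633, 8333 and 15404. Csf1r had signals of 575, 799 and 627, and Cd14 had 71.0, 197 and 365. The part of these cell types in the collagen differences was not tested. Bulk RNA does not tell a change in the number of cells of a kind from a change in RNA per cell, and this holds for every difference given here.

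More collagen chain genes were detected after induction. Detected, meaning well above background, were 25 of the 42 genes at day 0 (59.5%), 31 on the day 3 array (73.8%) and 33 on the day 21 array (78.6%), whereas the share over all named genes was 63.8%, 64.7% and 66.2%. Col9a1, Col9a3, Col11a2, Col24a1, Col26a1 and Col28a1 were first above background at day 3, Col15a1 and Col22a1 at day 21, and 0 of the chains detected at day 0 were lost. Not well above background on any array were 9 chains, Col4a3, Col6a4, Col6a5, Col6a6, Col13a1, Col17a1, Col19a1, Col20a1 and Col25a1, with signals between 1.98 and 11.9.

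At day 3, 9 of the 25 measured chains were at least 2-fold higher than at day 0 (36.0%, against a background of 7.73% of all measured genes) and 4 were lower (16.0%, against 7.85%). The median log2 difference of the 25 was -0.04, close to the -0.08 of all measured genes, since higher and lower chains lay on either side of a middle group. With the arrays scaled on spike-in controls instead, the split was 6 higher and 7 lower, and with scaling on spots detected on all arrays it was 9 and 3. A further 5 chains, above background at day 3 but not at day 0, were at least 2-fold higher by a lower bound. Such a bound divides the brighter value by a floor on the dim array, which is the smallest signal the software called well above background there or, if larger, the signal of the dim probe itself. Together 14 of 31 chains were higher by measurement or bound, beside 9.32% of all such genes. A chain above background on the later array alone could only be higher, so these 5 are a description.

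At day 21, 8 of 25 measured chains were at least 2-fold higher than at day 0 (32.0%, background 12.8%) and 4 were lower (16.0%, background 16.8%), with 5 more higher by a bound (13 of 33 together, background 15.4%). The share that was lower was thus near that of all genes. The median of the 25 was 0.52, against -0.21 over all measured genes. The split was 6 higher and 6 lower with spike-in scaling, 11 and 2 with scaling on detected spots and 10 and 3 with quantile normalization. Between day 3 and day 21, 11 of 31 measured chains were higher (35.5%, background 7.75%) and 1 was lower (3.23%, background 7.11%), and the medians were 0.18 for the chains and -0.10 for all genes. Day 21 against day 3 shares an array with each of the other comparisons and is not independent of them.

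**Figure D1:**
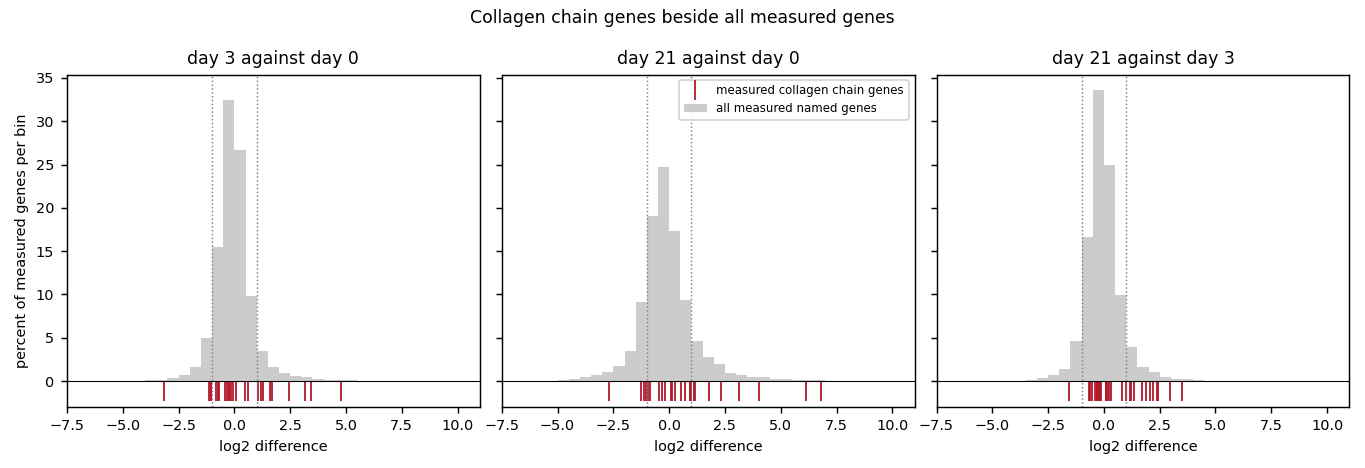
Grey bars give the percent of all measured named genes in each bin of log2 difference, for day 3 against day 0, day 21 against day 0 and day 21 against day 3; each red tick under the axis is 1 measured collagen chain gene (25, 25 and 31 genes) and dotted lines mark 2-fold. The chains spread more widely than the bulk of genes, from -3.15 to 4.76 at day 3 and from -2.69 to 6.82 at day 21, and with spike-in scaling the medians of all genes moved to -0.65 and -0.48.

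The path over both steps differed between chains. Among the 25 chains measured on all arrays, 11 (44.0%) stayed within 2-fold at each step, a share that was 76.2% over the 12221 genes measured on all arrays. Of the others, Col3a1, Col5a3, Col6a1, Col6a2, Col11a1 and Col18a1, were higher at day 3 and within 2-fold of that level at day 21, and Col9a2, Col14a1 and Col23a1 were higher again at day 21. Col8a2 and Col10a1 were lower at day 3 and higher again at day 21, Col7a1 was lower at each step, Col5a2 was lower at day 3 and flat afterwards, and Col27a1 was higher at the second step alone. The median size of the step was 1.05 from day 0 to day 3 and 0.40 from day 3 to day 21, and 15 of the 25 chains had the larger step first. The same values over all genes were not computed. Of all measured genes, 7.73% were higher and 7.85% lower at the first step, and 7.75% and 7.11% at the second. Both steps cross slides, since the day 3 array alone was on the other slide.

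**Figure D2:**
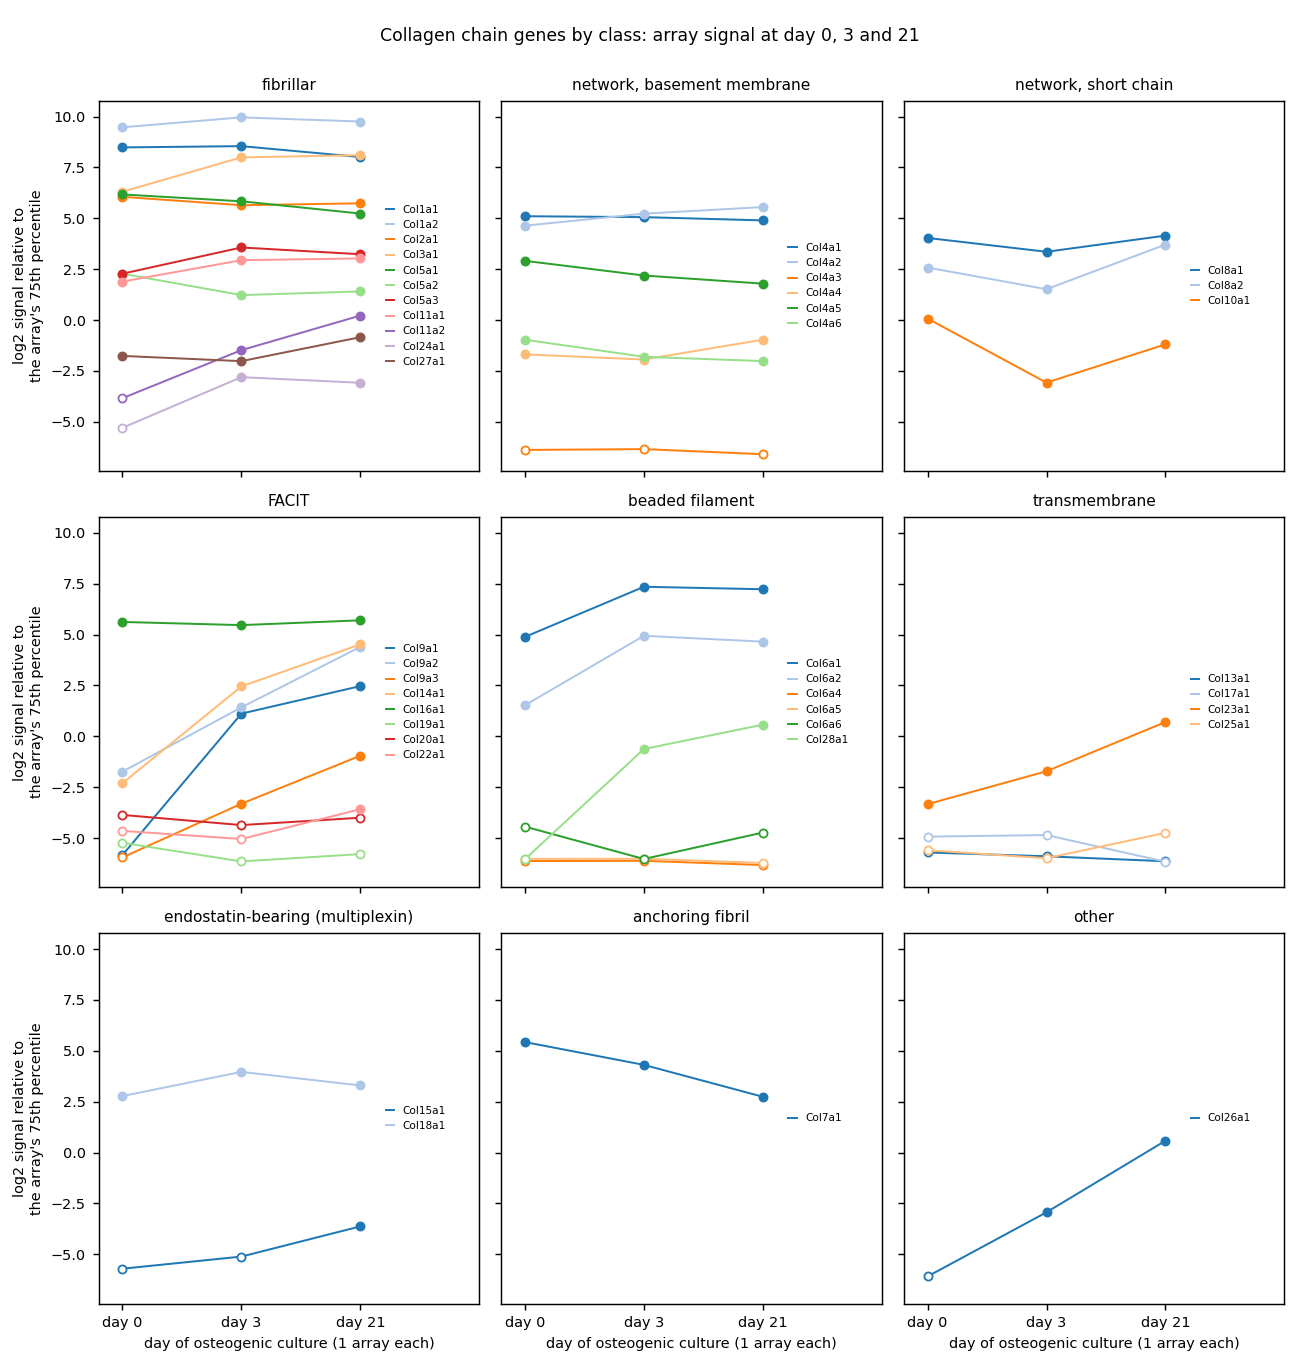
Each panel shows the chains of 1 class, with log2 signal relative to the array's 75th percentile on the vertical axis and the 3 days, equally spaced and 1 array each, on the horizontal axis; filled points are well above background and open points are not. Type VI chains step up between day 0 and day 3 and then level off, whereas Col9a2 and Col14a1 climb over both steps and Col7a1 declines over both.

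Type I collagen, the chief fibril of bone, was abundant at the start and stayed within 2-fold of day 0. Col1a1 had a processed signal of 61666 at day 0, 65266 at day 3 and 49263 at day 21, log2 differences from day 0 of 0.06 and -0.47. Col1a2, its partner chain in the type I helix, had signals of 122348, 173921 and 164899, log2 differences of 0.49 and 0.28. Neither passed 2-fold in any comparison. The chains were 0.75 apart on the log2 scale in their day 21 difference, which exceeds the technical SD. With spike-in scaling the day 3 values were -0.51 for Col1a1 and -0.08 for Col1a2. With quantile normalization the day 21 values were 0.33 for Col1a1 and 0.95, close to 2-fold, for Col1a2. No direction is therefore given for type I.

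Col3a1, the chain of the type III fibrils that mix with type I in soft and healing connective tissue, was the fibrillar chain with the largest measured increase. It had signals of 13635 at day 0, 44502 at day 3 and 52384 at day 21, 3.22-fold and 3.47-fold above day 0. Both induced arrays were high and lay within 1.08-fold of each other. With quantile normalization the day 21 log2 difference from day 0 was 2.52 in place of 1.79. That from day 3 to day 21 was 0.90 in place of 0.11, so the closeness of the induced arrays depends on the scaling. The bases just upstream of the annotated starts of Col1a2 and Col3a1 are shown because these fibrillar chains differed in their response. They are RefSeq promoter windows of mouse build GRCm38.p6, 120 bases written 5′ to 3′ and ending at the base before the start, at chr6:4505498-4505617, plus strand, and chr1:45311418-45311537, plus strand. Capitals mark motif matches, a CCAAT box in Col1a2 and a TATA box in Col3a1.
Col1a2: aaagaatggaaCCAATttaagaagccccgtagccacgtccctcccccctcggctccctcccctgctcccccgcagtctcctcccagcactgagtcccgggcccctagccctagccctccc
Col3a1: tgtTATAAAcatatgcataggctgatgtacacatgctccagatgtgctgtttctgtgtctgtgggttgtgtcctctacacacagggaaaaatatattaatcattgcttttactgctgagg
The CCAAT match of Col1a2 lies at -109 to -105 from the start, and the TATAAA match of Col3a1 at -117 to -112. A match of letters is a description of the window and not a site.

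Type V chains nucleate type I fibrils and set their width, and they did not move together. Col5a1, present in nearly all type V helices, had signals of 12423, 9968 and 7175, log2 differences of -0.34 and -0.94. Col5a2, its usual partner, had signals of 835, 408 and 505, with differences of -1.05 at day 3 and -0.87 at day 21. Col5a3, the chain of a minor type V form, had signals of 835, 2068 and 1795, with differences of 1.29 and 0.96. The day 0 array was thus high for Col5a1 and Col5a2 and low for Col5a3. Col5a3 and Col5a2 were 2.34 apart at day 3 and 1.83 apart at day 21, while Col5a1 and Col5a2 were 0.07 apart at day 21. These calls lay near 2-fold and moved across it with the scaling. The day 3 call of Col5a3 was under 2-fold with spike-in scaling (0.72), and that of Col5a2 with scaling on detected spots (-0.99) and with normexp background correction (-0.90). Normexp correction, here and below, added an offset of 50 to each spot, which by itself shrinks the differences of dim probes. At day 21 spike-in scaling put Col5a1 (-1.21) and Col5a2 (-1.14) past 2-fold lower, scaling on the median of all spots did so for Col5a1 too, and scaling on detected spots (1.13) and quantile normalization (1.09) put Col5a3 past 2-fold higher.

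The other fibrillar chains belong to cartilage fibrils or to minor fibrils. Col2a1, the main cartilage collagen, had signals of 11455, 8722 and 10171 and did not pass 2-fold. These values rest on 1 named probe, so no other probe checks the level of Col2a1. Col11a1, which forms the core of cartilage fibrils and is also found in bone, had signals of 639, 1341 and 1556, 2.07-fold and 2.20-fold above day 0, and both calls fell under 2-fold with spike-in scaling (0.48 and 0.87 on the log2 scale), as did the day 3 call with normexp correction (0.96). Col11a2, its partner, was not well above background at day 0 (12) and had signals of 62.6 at day 3 and 222 at day 21, at least 5.13-fold and at least 16.7-fold higher. From day 3 to day 21 Col11a2 was higher by 1.70 (1.1 with normexp correction) and Col11a1 by 0.09. Col24a1, a minor fibrillar chain of developing bone, had signals of 4.39 (not above background), 25.0 and 22.5, at least 2.41-fold and at least 1.99-fold above day 0. With spike-in scaling its day 3 bound was under 2-fold (0.70 on the log2 scale), and with scaling on detected spots its day 21 bound was past 2-fold (1.16). Col27a1, a minor chain of cartilage, had signals of 50.7, 43.0 and 106, a difference of 1.18 from day 3 to day 21 that was 0.54 with normexp correction, while its day 21 difference from day 0, 0.92, was 1.09 with scaling on detected spots. Of the 11 fibrillar chains, all were above background at day 3 and at day 21, and 9 at day 0.

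FACIT chains held the largest measured differences from day 0. Of 8 with a named probe, 3 were detected at day 0, 5 at day 3 and 6 at day 21. Col14a1, which binds type I fibrils and limits their lateral growth, had signals of 34.8 at day 0, 955 at day 3 and 4364 at day 21, 27.1-fold and 113-fold above day 0. The other probe of Col14a1 gave 49.1, 155 and 717, 3.11-fold and 13.2-fold. The direction was shared, but the log2 differences from day 0 were 3.12 and 3.10 apart between the probes, and only 0.02 apart from day 3 to day 21, so the size of the Col14a1 increase from day 0 depends on the probe. With normexp correction the log2 differences of the first probe were 3.21 and 5.30 in place of 4.76 and 6.82.

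Type IX collagen coats cartilage fibrils and is built from Col9a1, Col9a2 and Col9a3. Col9a2 had signals of 51.6, 468 and 4009, 8.95-fold and 70.1-fold above day 0. Col9a1 was not above background at day 0 (3.01) and reached 378 and 1055, at least 36.5-fold and at least 93.4-fold higher, although its other probe was not well above background on any of the days (4.15, 5.19 and 9.04). Col9a3 was likewise not above background at day 0 (2.78) and gave 17.5 and 98.5, at least 1.70-fold and at least 8.72-fold higher. All 3 type IX chains were lowest at day 0 and highest at day 21. From day 3 to day 21 they differed by 1.35, 2.97 and 2.36 for Col9a1, Col9a2 and Col9a3. Normexp correction gave 2.28 and 5.12 for Col9a2 against day 0, in place of 3.16 and 6.13, and left Col9a3 under 2-fold between day 3 and day 21 (0.83). The window upstream of Col9a2 (chr4:121039446-121039565, plus strand) is shown because it belongs to the chain of this type measured on every array, with GC boxes in capitals.
Col9a2: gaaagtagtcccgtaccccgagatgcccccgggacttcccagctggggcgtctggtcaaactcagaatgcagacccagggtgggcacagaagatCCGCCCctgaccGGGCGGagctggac
Its GC boxes lie at -26 to -21 on the minus strand and at -14 to -9 on the plus strand, relative to the gene. The remaining FACIT chains changed little or were dim. Col16a1, a widely expressed minor FACIT, had signals of 8469, 7706 and 9915, and its 3 probes were all within 2-fold. Col22a1, a chain of tissue junctions such as muscle to tendon, came above background at day 21 alone with signals of 6.86, 5.28 and 15.9, at least 1.41-fold above day 0. The summed signal of the chondrocyte markers given above was higher at each later day, as were the type IX chains and Col11a2. Col11a1 was higher at day 3 and differed by only 0.09 from day 3 to day 21. Of other cartilage chains, Col2a1 stayed within 2-fold and Col10a1 was lower than at day 0 on both later arrays. The part of the chondrocyte markers in these differences was not tested. Ucma, a secreted protein of cartilage, had signals of 6.13, 2245 and 3834, and Cnmd had 2.22, 343 and 3357. Ucma and Cnmd made up most of the sum at both later days. Acan, the main cartilage proteoglycan, had 177, 52.7 and 100, and Sox9 had 270, 765 and 704. Hapln1 had 9.74 (not above background), 84.0 and 120, and Matn1 and Matn3 had signals of at most 19.3. By measurement or bound, 4 of 6 markers were at least 2-fold higher at day 3 (background 9.32%), and 1, Acan, was lower. At day 21, 4 of 7 were higher (background 15.4%) and 0 were lower, with Acan within 2-fold of day 0.

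**Figure D3:**
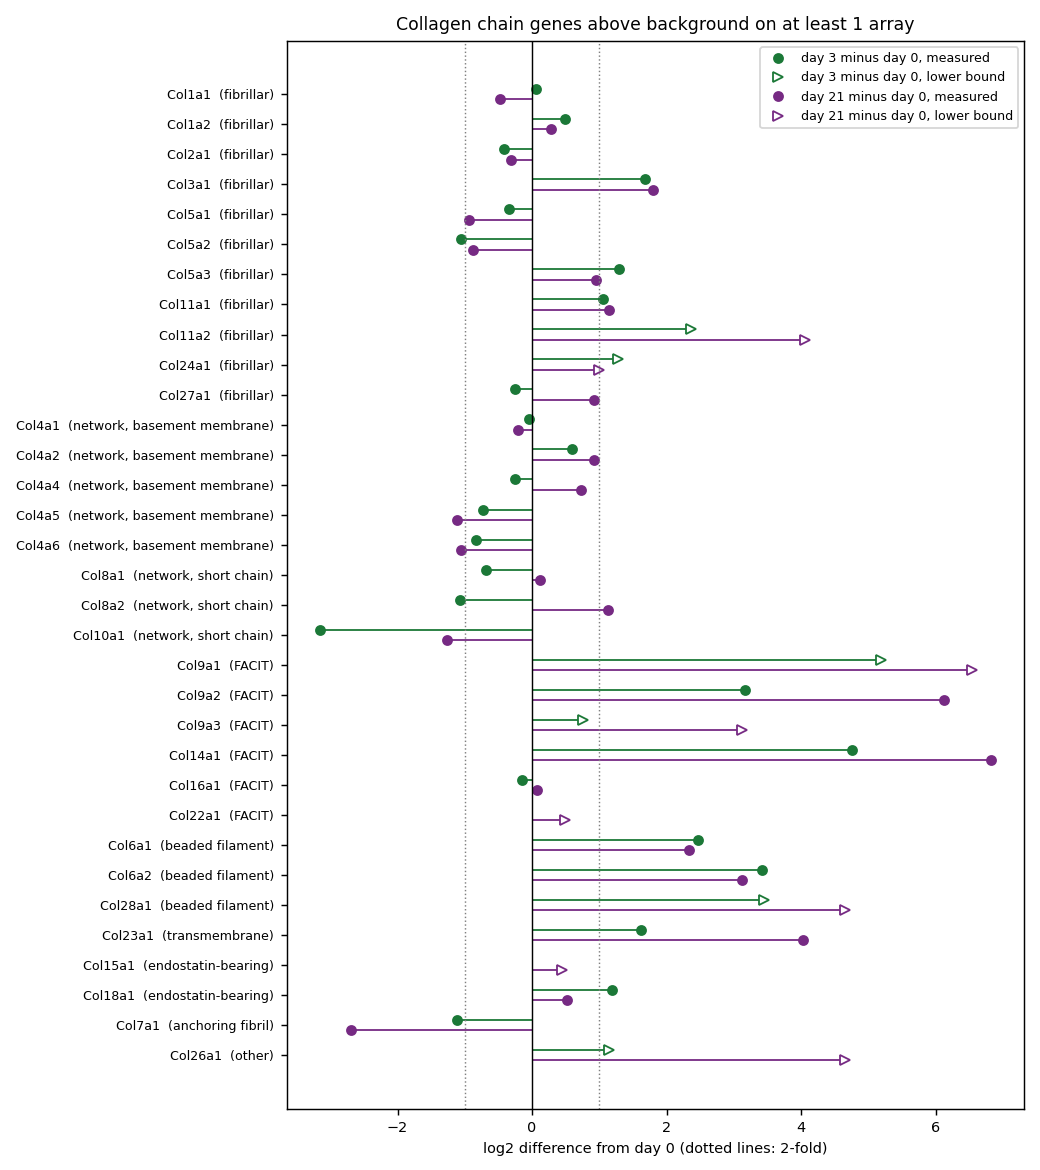
Log2 difference from day 0 for the 33 chains above background on at least 1 array, ordered by class, with day 3 in green and day 21 in purple; filled circles are measured on both arrays, open triangles are lower bounds, and dotted lines mark 2-fold. Col14a1, Col9a1 and Col9a2 reach beyond 6 at day 21 while Col7a1 lies at -2.69; with spike-in scaling Col5a3, Col11a1, Col18a1 and the bounds of Col24a1 and Col26a1 fall inside the day 3 lines, Col4a5, Col4a6 and Col8a1 pass the lower day 3 line, Col5a1 and Col5a2 the lower day 21 line, and Col8a2 and Col11a1 fall inside the day 21 lines.

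Type VI collagen forms beaded microfilaments that link cells to the surrounding matrix. Col6a1 had signals of 5091 at day 0, 28453 at day 3 and 28573 at day 21, 5.51-fold and 5.07-fold above day 0. Col6a2, its partner chain, had signals of 496, 5357 and 4790, 10.6-fold and 8.72-fold above day 0. For each chain both induced arrays were far above day 0 and within 1.22-fold of each other, and both calls held under every scaling tried. With quantile normalization the log2 difference of Col6a1 from day 3 to day 21 was 0.53 in place of -0.12. The genes lie next to each other in the genome, and their log2 differences were 0.95 apart at day 3 and 0.78 apart at day 21. Their upstream windows are shown because these neighbouring chains were higher together, at chr10:76726045-76726164, minus strand, and chr10:76623631-76623750, minus strand.
Col6a1: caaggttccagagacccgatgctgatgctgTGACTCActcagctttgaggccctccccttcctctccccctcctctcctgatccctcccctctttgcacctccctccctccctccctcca
Col6a2: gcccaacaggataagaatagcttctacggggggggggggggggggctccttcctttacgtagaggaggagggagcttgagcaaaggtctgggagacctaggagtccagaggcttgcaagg
The capitals mark an AP-1 match in Col6a1 at -90 to -84, and the 120 bases of Col6a2 shown, upstream of the outermost of its annotated starts, hold none of the motifs searched. The window of its other annotated start (chr10:76623405-76623524, minus strand), which lies downstream, holds 3 GC boxes, at -67 to -62, -15 to -10 and -11 to -6, and Col6a2 counts among the genes with a GC box. Col6a4, Col6a5 and Col6a6, which can take the place of Col6a3 in the type VI helix, were not above background on any array. Col28a1, a related chain known from peripheral nerve, was not above background at day 0 (2.62) and had signals of 113 and 284, at least 10.9-fold and at least 25.1-fold higher, and its day 21 to day 3 difference of 1.20 was under 2-fold with normexp correction (0.91).

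Of 5 measured basement membrane chains, 0 passed 2-fold at day 3, although with spike-in scaling Col4a5 (-1.29) and Col4a6 (-1.41) were past 2-fold lower. Col4a1, the common chain of basement membranes, was printed on 10 spots, with median signals of 5863, 5920 and 5749 over the 3 days and with an SD over spots of 0.07, 0.06 and 0.05 on the log2 scale. Its log2 differences from day 0 were -0.04 and -0.20, and the sign turned at day 21 with quantile normalization (0.06). Col4a2, which assembles with Col4a1 and is transcribed from the same intergenic region, had signals of 4287, 6538 and 8954, differences of 0.59 and 0.92. It was 1.12 above Col4a1 in its day 21 difference and passed 2-fold there with scaling on detected spots (1.09) and with quantile normalization (1.21). Col4a5, a chain of kidney and other specialised basement membranes, was lower, with signals of 1294, 796 and 659, 2.17-fold lower at day 21. Col4a6, its neighbour in the genome, had signals of 88.1, 49.9 and 47.1, 2.07-fold lower at day 21, but a second probe gave 41.5, 54.9 and 43.6 and a difference of -0.08. At day 21 both were under 2-fold with scaling on detected spots, at -0.95 and -0.88, as was Col4a5 with quantile normalization (-0.99) and Col4a6 with the mean of its probes (-0.56) and with normexp correction (-0.06). Col4a4 had signals of 53.4, 45.5 and 97.7 and did not pass 2-fold, while from day 3 to day 21 its difference of 0.97 was 1.08 with scaling on detected spots and 1.28 with spike-in scaling. Endothelial markers had summed signals of 3633, 4978 and 3250 with Cdh5 not above background on any array. Kdr made up most of each sum, at 3588, 4902 and 3173, and the other endothelial markers had signals of at most 27.7. The part of these markers in the type IV values was not tested.

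The short chain network collagens were all lowest at day 3. Col10a1, the marker of hypertrophic chondrocytes, had signals of 181 at day 0, 20.7 at day 3 and 83.3 at day 21, 8.88-fold lower at day 3 and 2.41-fold lower at day 21 than at day 0. With normexp correction its day 3 log2 difference was -1.52 in place of -3.15, and the calls at day 21 against day 0 (-0.86) and against day 3 (0.66) were under 2-fold. Col8a2, a chain of the corneal and vascular lattice, had signals of 1030, 499 and 2492, 2.09-fold lower at day 3 and 2.18-fold higher at day 21. Its second probe, much dimmer, gave 53.6, 25.4 and 133 and differences of -1.10 and 1.17, within 0.04 of the first. The day 21 call of Col8a2 fell under 2-fold with spike-in scaling (0.86), and the day 3 call with normexp correction (-0.97). Col8a1, its partner, had signals of 2824, 1786 and 3384 and did not pass 2-fold, though with spike-in scaling its differences were -1.25 at day 3 and 1.1 from day 3 to day 21. For all 3 genes the low point is the array on the other slide, so the trough and the slide cannot be told apart.

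Col7a1, which forms the anchoring fibrils beneath epithelium, was the chain with the largest measured decrease by day 21. It had signals of 7420 at day 0, 3460 at day 3 and 1275 at day 21, 2.17-fold and 6.44-fold lower than at day 0. The signal was highest at day 0 and lowest at day 21, and both calls held under every scaling tried. The windows upstream of Col10a1 (chr10:34389861-34389980, plus strand) and Col7a1 (chr9:108953466-108953585, plus strand) are shown for the chains that were lower, with a TATA box and a GC box in capitals.
Col10a1: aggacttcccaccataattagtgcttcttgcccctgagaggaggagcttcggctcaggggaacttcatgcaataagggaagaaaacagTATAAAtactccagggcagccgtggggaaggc
Col7a1: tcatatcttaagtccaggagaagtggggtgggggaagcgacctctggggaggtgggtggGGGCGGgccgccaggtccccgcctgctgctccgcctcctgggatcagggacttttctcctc
The TATAAA of Col10a1 lies at -32 to -27 from the start and the GGGCGG of Col7a1 at -61 to -56. Epithelial markers were dim, with summed signals of 114, 55.1 and 45.0 and Epcam, Krt8 and Cdh1 not above background on any array, and their part in the Col7a1 decrease was not tested. Smooth muscle markers had a summed signal that was lower at each later day, as Col7a1 was, at 558771, 212770 and 111271 with all 6 above background on each array. Acta2 and Tagln make up most of that sum, while Rgs5 of the same list had signals of 306, 315 and 786 and Myh11 had 559, 120 and 147, and their part was not tested either.

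Among the remaining classes, Col23a1, a transmembrane chain shed from the cell surface, had signals of 17.1, 53.1 and 310, 3.07-fold and 16.4-fold above day 0. With normexp correction the day 3 difference was under 2-fold (0.44), the day 21 difference was 2.01 in place of 4.04, and that from day 3 to day 21 was 1.57. Col23a1 was dim at day 0 and day 3, where the normexp offset of 50 by itself shrinks differences. Its second probe gave 9.14 (not above background), 33.7 and 202, and the day 21 to day 3 differences of those probes were 2.42 and 2.46. Col18a1, the source of endostatin in vascular and epithelial basement membranes, had signals of 1178, 2726 and 1873, 2.28-fold above day 0 at day 3 and 1.44-fold at day 21. A second probe of Col18a1 gave 788, 2089 and 1796, 2.62-fold and 2.06-fold, so the day 21 value lay on either side of 2-fold by probe and was past it with normexp correction (1.08), and the day 3 call fell under it with spike-in scaling (0.62). Col15a1, its relative, came above background at day 21 alone with signals of 3.29, 5.04 and 15.4, at least 1.37-fold above day 0. Col26a1, a chain known from testis and ovary, was not above background at day 0 (2.53) and had signals of 22.8 and 285, at least 2.21-fold and at least 25.2-fold higher, and 11.4-fold higher at day 21 than at day 3. The day 3 bound was under 2-fold with spike-in scaling (0.57 on the log2 scale), and the day 21 to day 3 difference of 3.52 was 1.82 with normexp correction.

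**Figure D4:**
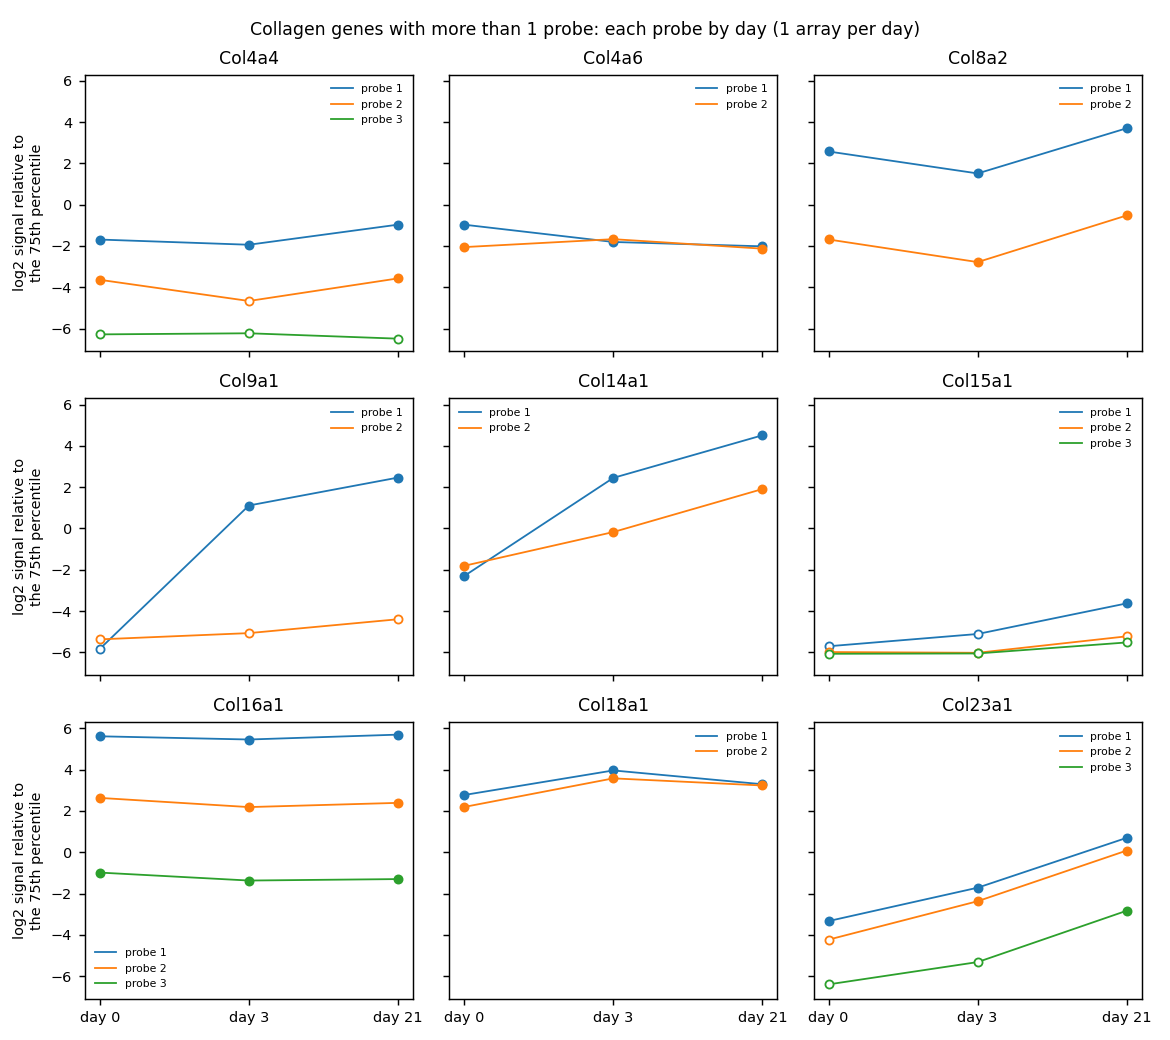
Each panel is 1 collagen chain gene with several probes of which at least 1 was above background, with log2 signal relative to the array's 75th percentile against the 3 days and 1 line per probe; filled points are well above background. Lines of Col8a2, Col16a1 and Col23a1 run in parallel, whereas the probes of Col14a1 are 3.12 apart in their day 3 difference and those of Col4a6 1.22 apart.

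The promoters were searched on both strands over the 250 bases before each start, for 34 of the 42 genes found in the RefSeq promoter table. The motifs were the CCAAT box, the TATA box (TATAAA), the GC box (GGGCGG), the Runx core (TGTGGT), the Sox core (AACAAT) and the AP-1 site (TGACTCA), and no motif contains another. GGGCGG was found in 21 of the 34 genes (61.8%) and in 35.4% of all genes with a promoter. The median GC content of the windows was 59.0% for the collagens and 52.4% over all promoters. The other motifs lay near or below the share of all genes. The CCAAT box occurred in 38.2% of the collagens and 37.5% of all genes, and the TATA box in 14.7% and 14.3%. The Runx core occurred in 8.82% of the collagens and 15.9% of all genes, the Sox core in 2.94% and 10.9%, and the AP-1 site in 2.94% and 5.16%. Among the 10 chains with a promoter that were at least 2-fold higher at day 21, by measurement or bound, 6 held GGGCGG, against 15 of the other 24.

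The enzymes and chaperones that modify and fold collagen were lower or within 2-fold of day 0. Of 17 measured genes of hydroxylation and folding, 0 were at least 2-fold higher and 2 were lower at day 3, and 0 higher and 4 lower at day 21. The shares that were lower, 11.8% and 23.5%, lie near the background of 7.85% and 16.8% of all measured genes, and 0 higher stands beside 7.73% and 12.8%. The list had medians of -0.22 and -0.57 beside -0.08 and -0.21 over all genes. Plod2, the lysyl hydroxylase of the non-helical chain ends, had signals of 1383, 238 and 383, log2 differences of -2.56 and -2.00. P3h1, a prolyl hydroxylase, had 1264, 1135 and 486, and Fkbp10, a chaperone of type I collagen, had 41080, 28930 and 17940, both lowest at day 21. Plod2, P3h1 and Fkbp10 are among the 4 genes that were lower at day 21, and the other 13 measured genes were within 2-fold of day 0.

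Of 14 measured genes of export, cleavage and crosslinking, 1 was higher and 2 were lower at day 3, and 1 higher and 3 lower at day 21. These shares, 7.14% higher at each day and 14.3% and 21.4% lower, lie near the background of 7.73% and 12.8% higher and 7.85% and 16.8% lower. Adamts2, which removes the amino-terminal propeptide of types I, II and III, had signals of 1851, 12213 and 30075, 6.51-fold and 14.7-fold above day 0. Loxl2, a lysyl oxidase active on basement membrane collagen, had 20124, 5740 and 2818, 3.55-fold and 7.91-fold lower. Sec23a, a coat protein of the vesicles that carry procollagen, had 741, 467 and 274. Of 7 measured receptors, 1 was higher and 1 lower at day 3, and 2 higher and 2 lower at day 21, counts too small to set apart from the same background. Lair1, an inhibitory collagen receptor of leukocytes, had signals of 15.5, 70.6 and 71.1. Itga11, the integrin chain for fibrillar collagen on stromal cells, had 15384, 7949 and 4142, and Itga1, an integrin chain for network collagen, had 164, 103 and 509. At day 21 Itga11 was at its lowest and Itga1 at its highest.

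Genes for proteins that bind collagen in the matrix were higher or within 2-fold of day 0. Of 11 measured genes of this list, 3 were higher and 0 lower at day 3, and 6 were higher and 0 lower at day 21, which is 27.3% and 54.5% higher beside a background of 7.73% and 12.8%, with 1 and 2 more by a bound and medians of 0.78 and 1.41. Comp, which binds types I, II and IX in cartilage and tendon, had signals of 434, 2530 and 48888, 5.75-fold and 102-fold above day 0. Lum, a proteoglycan that spaces fibrils, had 405, 3080 and 20302, 7.50-fold and 45.3-fold. Dpt, a small matrix protein that promotes fibril formation, was not above background at day 0 (3.48) and had 320 and 1096, at least 31.0-fold and at least 97.1-fold higher. All 3 were lowest at day 0 and highest at day 21, as were Col9a2 and Col14a1.

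**Figure D5:**
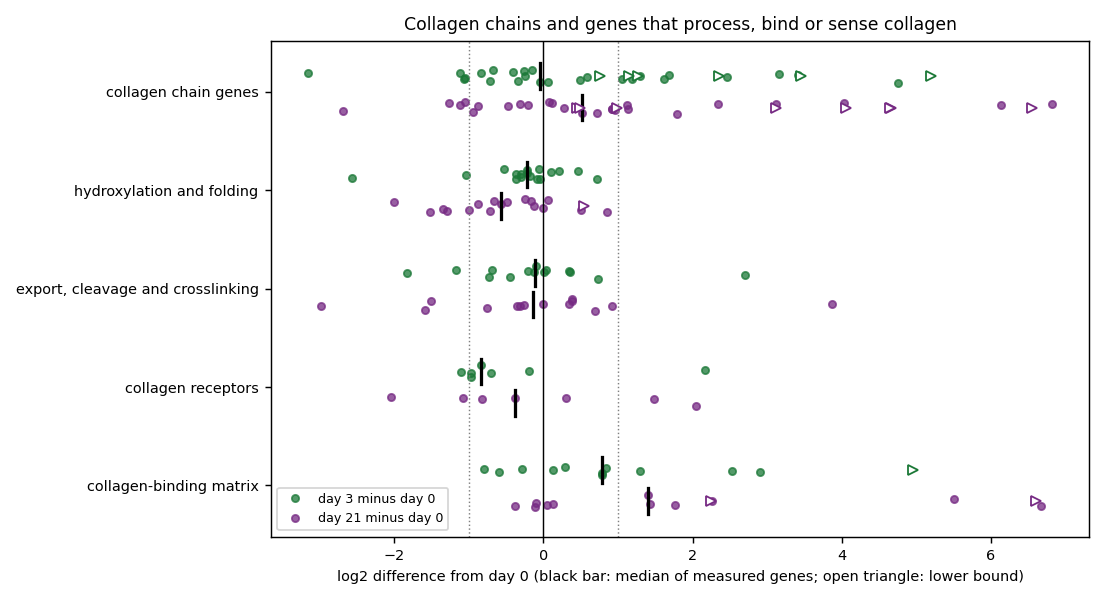
Log2 difference from day 0 of each measured gene of the collagen chains and of 4 lists of genes that process, bind or sense collagen, with day 3 in green and day 21 in purple; black bars are medians of measured genes, open triangles are lower bounds and dotted lines mark 2-fold. The medians at day 21 run from -0.57 for hydroxylation and folding to 1.41 for collagen-binding matrix, with 0.52 for the chains.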

How the data were processed

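RNA of 3 samples, 1 per day, was labelled with Cy3 and hybridised to 1-colour Agilent arrays. The deposited scanner files hold spot intensity on a linear scale, background-subtracted by Agilent Feature Extraction, version 10.10.1.1 per the file headers and 12.0 per the submitters' processing notes. The deposited series value table held the same values. Log2 values were computed here from the deposited intensity after division by each array's 75th percentile over non-control spots. Outlier spots were left out, spots of a probe were averaged, and a gene took its probe with the highest mean. Probes were named through accessions in a RefSeq table (GRCm38.p6), which left 28909 of 55681 unnamed. Values on every array are given for chains past 2-fold in any comparison and for types I, III and V, and at most 3 genes of a pathway list are named, those with the largest differences. The members and lists were chosen with earlier results of these data known. The number of arrays, 3, and the brightness of each probe limit the precision. Calculations used Python 3.11.15, pandas 2.3.3, R 4.3.3 and limma 3.58.1 (normexp), and were tested on simulated data. Alternatives covered scaling, background correction, probe choice, the dim-probe filter, outliers and the size rule. Protein sequences were not analysed here. A marker list is not reported here.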

Additional observations from a re-analysis of the deposited data

How the results depend on the processing

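No paired analysis was possible because each day has 1 array, and the same limit leaves every difference without a replicate check. No collagen chain call reversed its direction under any alternative run, and the counts below replace those of the report. Scaling on spike-in controls moved the median of all genes to -0.65 at day 3 and -0.48 at day 21 against day 0, and to 0.20 at day 21 against day 3. It moved each of the 81 log2 differences of chains by more than 0.20, the median SD of the error model, though not in every case by more than the chain's own SD. It left 7 chains lower, 3 higher by a bound and a median of -0.61 at day 3, a median of 0.26 at day 21, and one of 0.48 from day 3 to day 21. Taken relative to each scaling's own median of all genes, 9 chains were higher and 2 lower at day 3 and 11 and 2 at day 21, also with quantile normalization, the scaling here that is not a constant per array and so could have changed these counts. Quantile normalization gave a median of 0.53 from day 3 to day 21. Scaling on spots detected on all arrays left 2 lower at day 21. With normexp correction of the median spot signal, used because no mean spot signal was at hand, 2 were lower and 2 higher by a bound at day 3, 2 lower at day 21, and 7 higher from day 3 to day 21. This correction added an offset of 50 to each spot, which by itself shrinks the differences of dim probes. The smaller values of dim chains under it are therefore no check on those chains. The dimmest measured probe of each gene gave a median of 0.28 at day 21. Without the filter on dim probes 15 were higher at day 3, 16 higher at day 21 and 2 lower from day 3 to day 21, and 46 comparisons of chains of a type were at least 2-fold apart, against 19 with the filter. Requiring detection on all 3 arrays left 6 higher from day 3 to day 21. A 1.5-fold rule gave 7 lower at day 3 and 3 lower from day 3 to day 21, and a 3-fold rule 1 lower and 3 higher by a bound at day 3, 1 lower at day 21 and 0 lower from day 3 to day 21. Beyond the part set by the normexp offset, the cause of these shifts was not tested. Naming probes by a symbol printed in the array file was not run, since the files used here hold no symbol column. Signal over background limits the dim chains, whose folds are lower bounds.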

Other observations

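Of the pairs of collagen chain genes that lie next to each other in the genome, 4 were measured in both genes, and 2 of them lay on the same side of day 0. The share over other neighbouring genes was not computed, so the count does not set the chains apart. Col3a1 and Col5a2, which are neighbours, differed in direction, at 1.69 and -1.05 on the log2 scale at day 3 and 1.79 and -0.87 at day 21. Col4a1 and Col4a2 were at -0.20 and 0.92 at day 21, whereas Col6a1 and Col6a2 were both higher and Col4a5 and Col4a6 both lower, at -1.12 and -1.05. The sign of Col4a1 turned with quantile normalization (0.06), which would put that pair on the same side. The second probe of Col4a6 gave -0.08. Col6a4, Col6a5 and Col6a6 were not above background on any array. Col9a1, at least 93.4-fold higher at day 21, neighbours Col19a1, which was not above background on any array. Each value comes from 1 array per day.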
